A study of Mus musculus with 6 samples.

Results

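The genes examined here carry out glucose uptake, glycolysis, lactate production and export, and the pentose phosphate pathway, with 3 genes of the hypoxia-inducible factor branch. They were taken by symbol from a list of 35, of which 34 were rows of the deposited table of 19233 genes, and all 34 passed the filter that kept 9748 genes for testing. Ldhb was not analysed here. Levels came from polysome-fraction RNA of RAW264.7, an established mouse macrophage-like line, and are given in FPKM, which divides fragments by the length of the transcript and the size of the library. Every library was titled M2, the alternatively activated state. The 3 BMH-21 libraries came from cells that had received 500 nM of this small-molecule inhibitor of RNA polymerase I for 24 h, starting 24 h after polarization, and the 3 DMSO libraries from cells given the vehicle. The treatment text of the labels describes bone-marrow-derived macrophages given IL-4 or interferon gamma with LPS, so the agent that polarized the line itself is not stated. RNA from polysomes is RNA that carries several ribosomes. A level thus combines the amount of an mRNA with its loading, and unfractionated RNA was not used here.

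Glycolysis splits glucose into pyruvate in the cytosol. Hexokinase traps glucose as glucose phosphate, phosphofructokinase commits it to breakdown, and the triose enzymes recover ATP and NADH. Lactate dehydrogenase regenerates NAD by turning pyruvate into lactate, which leaves through monocarboxylate transporters. The pentose phosphate pathway branches off at glucose phosphate: its oxidative arm makes NADPH and its non-oxidative arm makes ribose phosphate for nucleotides or returns carbon to glycolysis. In macrophages, inflammatory activation is known for high glycolysis and HIF-1 activity, and NADPH also serves the oxidative burst.

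Steps between low values implied 18770000 to 24080000 reads per library, and the members rested on approximately 97 to 34208 reads each. Of 10 macrophage markers, 9 averaged at least 1 FPKM, and their summed level, most of it from Lyz2, was 10812 to 11211 FPKM with DMSO and 18584 to 19798 FPKM with BMH-21. Markers of the alternatively activated state were low: Arg1 and Mrc1, the 2 analysed of 4 listed, summed to 5.34 to 5.67 FPKM with DMSO and 1.44 to 1.75 FPKM with BMH-21. The 3 epithelial markers Krt8, Krt18 and Epcam separated the libraries in a way that the groups do not. Their summed level was 0 in DMSO 1 and 0.088 FPKM in DMSO 2, but 9.23 FPKM in DMSO 3 and 13.5, 10.5 and 12.5 FPKM in BMH-21 1, 2 and 3. In all, 42 genes were under 0.08 FPKM in both DMSO 1 and DMSO 2 and above 0.2 FPKM in each of the other 4 libraries, and none of them was a member. T cell, B cell, fibroblast and endothelial markers summed to at most 0.108 FPKM in any library. Of these, 1 of 4 listed T cell markers (Cd4), 1 of 3 B cell markers (Cd79a) and 2 of 3 fibroblast markers were analysed. The part of the epithelial RNA in the results was not tested. The main counts are given below with DMSO 3 left out, and the members' median with DMSO 3 as the only control.

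With BMH-21, most mRNAs of glycolysis and of the pentose phosphate pathway were lower on polysomes. On the log2(FPKM + 1) scale, Pgk1, Bnip3, Gpi1, Pfkp and Tkt fell by at least 1, to between 38.9% and 45.6% of their DMSO means. Pfkm, at a lower level, fell to 43.3% of its DMSO mean and by 0.92 on that scale, which understates changes of low genes. A single member rose, the hexokinase Hk3. The glucose transporters Slc2a1 and Slc2a6, Hk2, the mutase Pgam1, Eno2, Rpe and Hif1a itself did not pass the test. In bulk RNA, fewer cells of a kind and less RNA per cell cannot be told apart. Of 34 members, 27 were called by limma, against 78.3% of all tested genes. At an adjusted p under 0.05, 26 were called lower, where 58.4% of all tested genes were, and 1 higher, where 19.9% of all tested genes were. Falls of at least 0.5 on the log2 scale were called for 19 members, against 25.5% of all tested genes, and falls of at least 1 for 5 members, against 5.24%. BMH-21 libraries lay wholly below DMSO libraries for 26 members, against 59.5% of all tested genes, and wholly above for 2, Hk3 and Pgam1, against 20.3%. In either direction 28 members did not overlap, against 79.8% of all tested genes. The median log2 fold change was −0.55 over the members and −0.23 over all tested genes, a difference of −0.32.

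Because the values are shares of a library, the count of falls moved with the scaling of the libraries. Median-ratio scaling brought the median of all genes from −0.23 to 0.001, upper-quartile scaling to 0.032 and quantile normalization to 0.004, and equal column totals to −0.33. With upper-quartile scaling 20 members were lower and 10 higher, beside 33.4% and 40.1% of all tested genes, and with quantile normalization 22 were lower and 6 higher, beside 35.9% and 36.3%. With median-ratio scaling 21 were lower and 7 higher, beside 36% and 37.7%, and with equal column totals 31 were lower and 1 higher, beside 68.1% and 14.2%. The difference between the members' median and that of all genes was −0.31 with both ratio scalings, −0.40 with quantile normalization and −0.33 with equal totals. The same 20 genes lower, and Hk3 higher, were called in the same direction under each of the 16 alternatives run: Gpi1, Pfkl, Pfkm, Pfkp, Pfkfb3, Aldoa, Tpi1, Gapdh, Pgk1, Eno1, Pkm, Ldha, Slc16a1, Slc16a3, Pdk1, Bnip3, G6pdx, Pgd, Tkt and Taldo1. Without DMSO 3, 26 members were lower and 1 higher, beside 56.5% and 18.6% of all tested genes. With DMSO 3 as the only control, the members' median log2 fold change was −0.54. The plot of log2 fold changes in pathway order shows where along the route the falls lay.

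**Figure D1:**
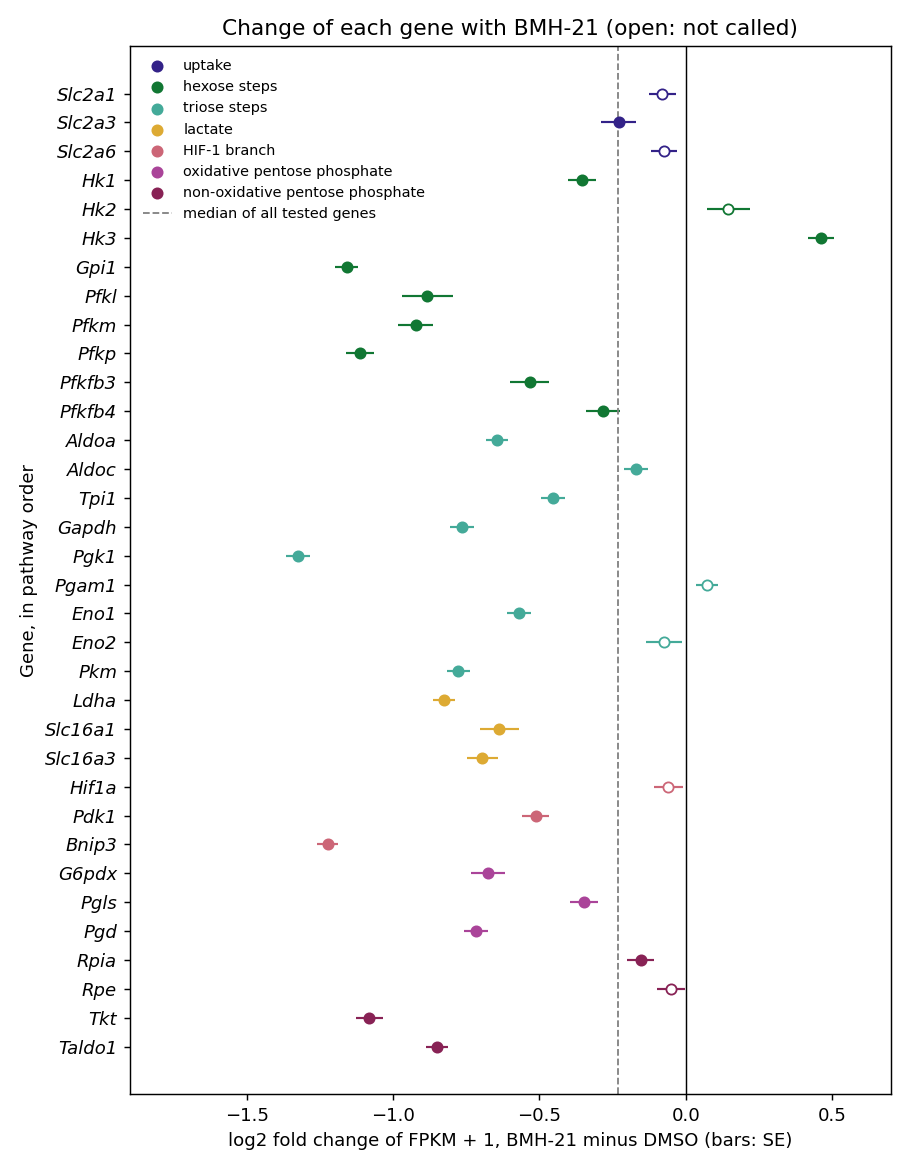
Each point is the log2 fold change of FPKM + 1 of 1 gene, BMH-21 minus DMSO, with its SE as a horizontal bar (3 libraries per group), in pathway order from top to bottom and coloured by step. Filled points passed limma at an adjusted p under 0.05. The dashed line is the median of all 9748 tested genes, −0.23; most filled points lie left of it, Hk3 is the filled point to the right of 0, and the glucose transporters lie near the dashed line or between it and 0.

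The 5 members that fell by at least 1 on the log2(FPKM + 1) scale and the 1 that rose are shown with the 250 bases before their RefSeq start (GRCm38.p6), because short motifs of hypoxia-inducible factor are well known from glycolytic promoters. Capitals mark ACGTG or GCGTG, the core bound by hypoxia-inducible factors, on either strand. CACGTG, the E-box read by MYC and USF proteins, contains ACGTG on both strands and is then counted in both. The windows lie at chrX:106186850-106187099 (plus strand) for Pgk1, chr7:138909507-138909756 (minus) for Bnip3, chr7:34230337-34230586 (minus) for Gpi1, chr13:6648772-6649021 (minus) for Pfkp, chr14:30548881-30549130 (plus) for Tkt and chr13:55021386-55021635 (minus) for Hk3.
Pgk1: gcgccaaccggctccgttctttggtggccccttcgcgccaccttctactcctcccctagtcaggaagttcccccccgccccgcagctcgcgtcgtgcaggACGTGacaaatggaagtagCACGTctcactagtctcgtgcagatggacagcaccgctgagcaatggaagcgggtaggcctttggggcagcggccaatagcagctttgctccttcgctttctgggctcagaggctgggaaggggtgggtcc
Bnip3: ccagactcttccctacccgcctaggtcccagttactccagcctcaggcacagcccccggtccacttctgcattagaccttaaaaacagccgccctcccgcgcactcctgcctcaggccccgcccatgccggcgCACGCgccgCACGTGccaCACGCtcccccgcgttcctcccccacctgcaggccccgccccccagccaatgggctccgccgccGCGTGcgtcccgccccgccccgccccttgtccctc
Gpi1: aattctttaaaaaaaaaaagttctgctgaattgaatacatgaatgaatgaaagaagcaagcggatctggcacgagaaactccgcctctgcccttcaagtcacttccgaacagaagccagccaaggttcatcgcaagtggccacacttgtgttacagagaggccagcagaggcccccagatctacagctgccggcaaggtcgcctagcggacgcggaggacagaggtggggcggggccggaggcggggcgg
Pfkp: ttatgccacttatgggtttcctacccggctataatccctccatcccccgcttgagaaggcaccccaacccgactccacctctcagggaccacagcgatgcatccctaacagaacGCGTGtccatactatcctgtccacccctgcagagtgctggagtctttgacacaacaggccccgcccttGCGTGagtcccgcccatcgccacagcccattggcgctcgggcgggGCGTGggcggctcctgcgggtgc
Tkt: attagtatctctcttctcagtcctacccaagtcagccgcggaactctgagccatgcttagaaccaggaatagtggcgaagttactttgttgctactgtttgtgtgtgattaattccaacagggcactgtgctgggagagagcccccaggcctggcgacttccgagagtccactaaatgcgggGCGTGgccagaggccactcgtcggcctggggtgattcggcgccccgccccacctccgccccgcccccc
Hk3: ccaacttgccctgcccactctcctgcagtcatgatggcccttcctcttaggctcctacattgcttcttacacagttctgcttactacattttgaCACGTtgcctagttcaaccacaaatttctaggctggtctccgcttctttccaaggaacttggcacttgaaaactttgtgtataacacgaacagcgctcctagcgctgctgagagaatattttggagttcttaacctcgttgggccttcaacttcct

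The 6 windows differed in motif content. Bnip3 held 1 CACGTG and 3 GCGTG matches, Pfkp 3 GCGTG matches and Tkt 1 GCGTG match. Pgk1 held 2 ACGTG matches, on opposite strands, and Hk3, the gene that rose, held 1. No match was found in the Gpi1 window. Of the tested members, 33 had at least 1 RefSeq window, 47 windows in all. ACGTG or GCGTG was present in 78.7% of these windows, in 80.6% of the 31 windows of members that fell by at least 0.5, and in 75% of the 16 windows of the other members, against 38.6% of all 32851 RefSeq windows of the same 250 bases. The members' windows had a median GC content of 60.4%, against 52.4% for all windows, and the part of base composition in the motif shares was not tested. All windows include those of genes that were not tested here. Some windows of a member overlap, as for Eno1 and Aldoa, so that a match can be counted more than once. CACGTG was present in 12.8% of the members' windows and in 6.02% of all windows.

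Of the 3 glucose transporters among the members, Slc2a3 alone passed the test. Slc2a6, which encodes GLUT6, was the most abundant of the 3 transporters, at 48.3, 48.7 and 50.0 FPKM with DMSO and 48.7, 44.1 and 46.8 FPKM with BMH-21. These ranges overlapped, and the log2 fold change was −0.07 ± 0.04 (SE, limma adjusted p = 0.149). Slc2a1, the widespread transporter GLUT1, stood at 10.8, 10.8 and 10.2 FPKM with DMSO and at 9.62, 10.1 and 10.3 FPKM with BMH-21. The Slc2a1 groups overlapped as well (log2 fold change −0.08 ± 0.05, SE, limma adjusted p = 0.135). Both transporters passed as higher with median-ratio scaling, at 0.18 for Slc2a1 and 0.20 for Slc2a6, and with upper-quartile scaling, at 0.21 and 0.24, and as lower with column totals made equal, both at −0.19. Slc2a1 also passed as higher with quantile normalization, at 0.17. Slc2a3, the high-affinity transporter GLUT3, fell from 4.08 ± 0.13 to 3.34 ± 0.30 FPKM (SD, n = 3). Its log2 fold change of −0.23 equalled the median of all genes to the digits given, and its sign turned with upper-quartile scaling, at 0.02, and quantile normalization, at 0.10. Slc2a3 did not pass in either of those fits, with median-ratio scaling, at −0.01, or with adjustment for coding length and GC content, at −0.11.

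Among the hexokinases Hk3 rose and Hk1 fell. Hk3, the hexokinase typical of myeloid cells, read 13.6, 14.1 and 13.0 FPKM with DMSO and 18.9, 18.6 and 19.6 FPKM with BMH-21. All BMH-21 libraries were above all DMSO libraries, and the log2 fold change was 0.46 ± 0.05 (SE, limma adjusted p = 6.59e-06), higher than that of 92.7% of tested genes. Unc5a, whose exons overlap those of Hk3 on the opposite strand, was listed at 0 with DMSO and at 0.0071 FPKM with BMH-21. Across the alternatives that rise ranged from 0.35 with column totals made equal to 0.76 with upper-quartile scaling. Hk1, the broadly expressed isoform that sits on mitochondria, went the other way, from 5.63, 5.66 and 5.33 FPKM to 4.05, 4.05 and 4.25 FPKM (log2 fold change −0.35 ± 0.05, SE, limma adjusted p = 7.6e-05). Hk1 no longer passed under quantile normalization, at −0.03, or upper-quartile scaling, at −0.09. Hk2, the isoform induced by HIF-1 and insulin, was at 4.31, 4.10 and 3.93 FPKM with DMSO and at 4.88, 4.04 and 5.11 FPKM with BMH-21. BMH-21 2 lay among the DMSO values and the other 2 BMH-21 libraries above them, and the log2 fold change of Hk2, 0.15 ± 0.07, did not pass (SE, limma adjusted p = 0.0926). Without BMH-21 2 it passed as higher, at 0.23. It also passed as higher with median-ratio scaling, at 0.38, upper-quartile scaling, at 0.41, quantile normalization, at 0.47, and adjustment for coding length and GC content, at 0.23, but not with equal column totals, at 0.05.

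FPKM is scaled by transcript length, so the isoforms of a family can be set side by side. Hk3 made up 57.8%, 59.1% and 58.3% of the summed hexokinase level with DMSO and 67.9%, 69.7% and 67.7% with BMH-21, a gain of 10.0 percentage points. The share of Hk1 went from 23.9% ± 0.12 to 14.8% ± 0.35 and that of Hk2 from 17.7% ± 0.55 to 16.8% ± 1.4 (SD, n = 3). For Hk3 and Hk1 the groups did not overlap, and the two-sided exact permutation p was 0.10, the smallest that 3 against 3 libraries allow, or 0.16 adjusted over the 13 shares tested. The summed hexokinase level was 120% of the DMSO mean.

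Past the hexokinases, the mRNAs of the early steps fell. Gpi1 (chromosome 7, 34201330 to 34230336, minus strand), which converts glucose phosphate to fructose phosphate, read 64.5, 66.5 and 66.1 FPKM with DMSO and 29.5, 28.0 and 29.1 FPKM with BMH-21. All treated libraries lay far below all controls, at 43.9% of the DMSO mean, and the log2 fold change was −1.16 ± 0.04 (SE, limma adjusted p = 4.62e-09). The 3 subunit genes of phosphofructokinase, the committing step, fell together. Pfkp, the platelet form, went from 7.54, 7.57 and 7.08 FPKM to 2.85, 2.89 and 2.90 FPKM (log2 fold change −1.11 ± 0.05, SE, limma adjusted p = 2.21e-08). Pfkm, the muscle form, went from 5.42, 4.83 and 4.76 FPKM to 2.03, 2.24 and 2.23 FPKM. Pfkl, the liver form, went from 7.40, 6.82 and 6.52 FPKM to 2.83, 3.15 and 3.94 FPKM, with BMH-21 3 the highest treated library. In each of the 3 the treated libraries lay below all controls, and log2 fold changes were −0.92 for Pfkm and −0.88 for Pfkl.

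Summed over the 3 genes, phosphofructokinase went from 19.3 ± 1.0 to 8.35 ± 0.68 FPKM (SD, n = 3), 43.2% of the DMSO mean, the lowest of the 7 isozyme families. Its make-up shifted by a few points: Pfkp from 38.3% ± 1.2 to 34.6% ± 2.5 and Pfkl from 35.8% ± 0.50 to 39.4% ± 3.5 of the sum, each with an exact permutation p of 0.10 and 0.16 after adjustment. The PFKFB enzymes set the level of the allosteric activator of phosphofructokinase. Pfkfb3, the form with the strongest kinase activity, went from 3.71, 3.68 and 3.74 FPKM to 2.32, 1.96 and 2.50 FPKM (log2 fold change −0.53 ± 0.07, SE, limma adjusted p = 3.73e-05). Pfkfb4 fell less, from 5.87 ± 0.14 to 4.65 ± 0.37 FPKM (SD, n = 3), a call that upper-quartile scaling, at −0.02, and median-ratio scaling, at −0.05, did not keep, and whose sign turned with quantile normalization, at 0.04. The share of Pfkfb3 in the pair went from 38.7% ± 0.62 to 32.7% ± 2.7, with no overlap between groups and an exact permutation p of 0.10, or 0.16 adjusted. The plot of isozyme families shows the smaller phosphofructokinase total and the larger hexokinase total side by side.

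**Figure D2:**
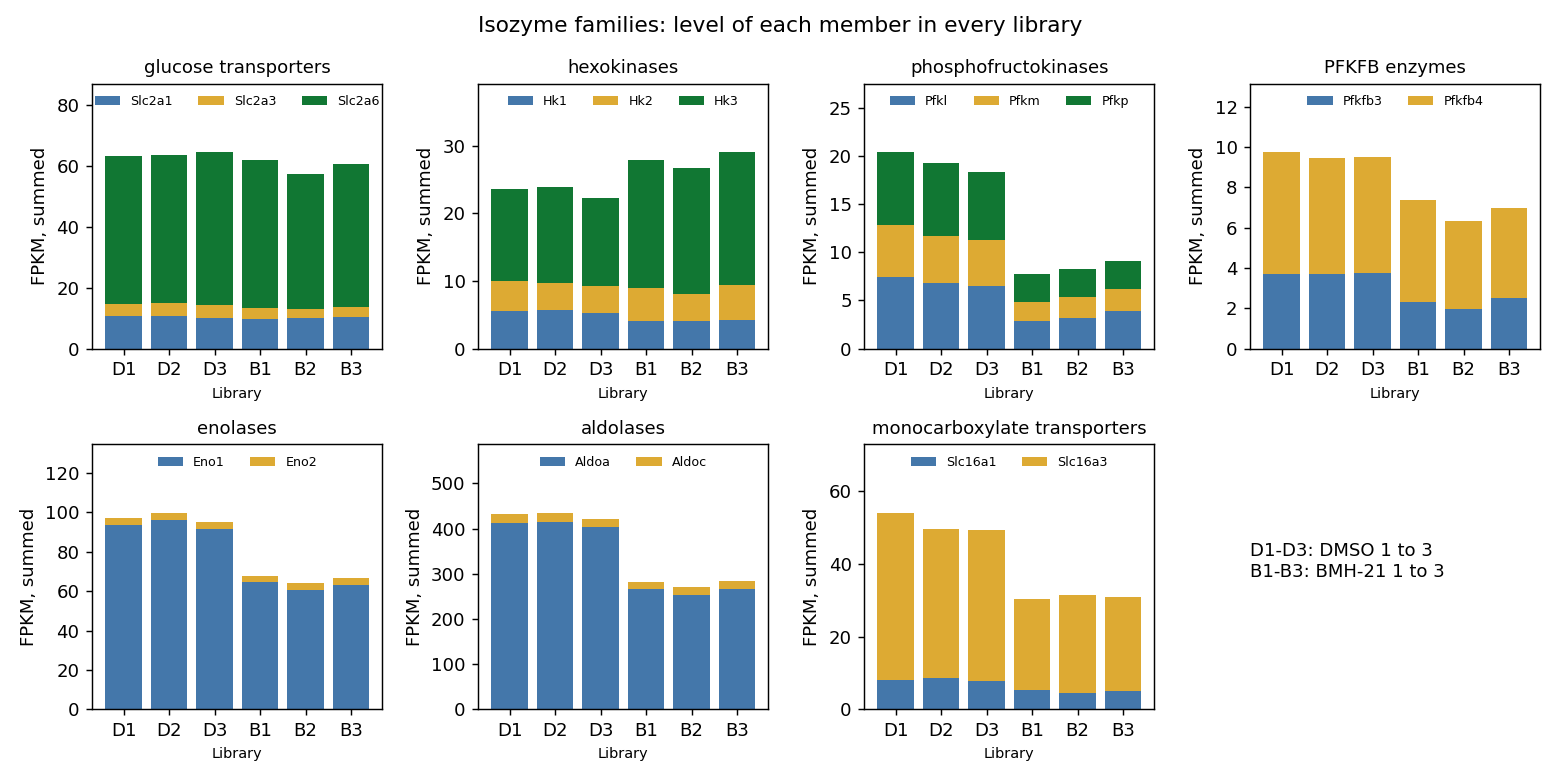
Stacked bars give the FPKM of each family member in each library (D1 to D3, DMSO; B1 to B3, BMH-21), 1 panel per family with its own axis from 0. Phosphofructokinase drops from a sum of 18.4 to 20.4 FPKM to one of 7.7 to 9.07 FPKM. The hexokinase sum goes from 22.2 to 23.8 FPKM up to 26.6 to 29 FPKM through Hk3. The sum of Slc2a1, Slc2a3 and Slc2a6 stays between 57.2 and 64.4 FPKM. Slc2a8, Slc2a9 and Eno3 are not shown.

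The triose steps hold the most abundant mRNAs of the pathway, and 7 of 9 were called lower, against 58.4% of all tested genes. Pgk1 (chromosome X, 106187100 to 106203699, plus strand), phosphoglycerate kinase, makes the first ATP of the pay-off phase. It read 283, 305 and 304 FPKM with DMSO and 118, 118 and 118 FPKM with BMH-21 (log2 fold change −1.32 ± 0.04, SE, limma adjusted p = 3.15e-09). Only 1.95% of tested genes had a lower log2 fold change. Aldoa, the main aldolase, went from 411.5, 414.1 and 402.5 FPKM to 265, 253 and 266.5 FPKM. Pkm, pyruvate kinase, went from 324, 326 and 323 FPKM to 192, 181 and 194 FPKM. Tpi1, triose phosphate isomerase, fell less, from 483, 512 and 504 FPKM to 367, 357 and 368 FPKM. In all 4 genes every treated library lay below every control, and the log2 fold changes were −0.65 for Aldoa, −0.78 for Pkm and −0.45 for Tpi1.

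The minor isoforms Aldoc and Eno2 had smaller log2 fold changes than Aldoa and Eno1. Eno3, an enolase gene outside the list of members, fell from 13.4 to 7.24 FPKM, with a log2 fold change of −0.81, more than Eno1. It was chosen after its values were seen. Aldoc, the aldolase best known from brain, went from 19.7 ± 0.58 to 17.4 ± 0.36 FPKM (SD, n = 3), a call whose sign turned with median-ratio scaling, at 0.10, upper-quartile scaling, at 0.13, and quantile normalization, at 0.05, the upper-quartile value passing as higher. The fall was also not called with DMSO 3 as the only control (log2 fold change −0.12). Eno2, the neuronal enolase, was at 3.61 ± 0.06 and 3.39 ± 0.32 FPKM and did not pass (SD, n = 3, limma adjusted p = 0.292). Eno2 passed as higher with upper-quartile scaling, at 0.18, and quantile normalization, at 0.26, and as lower with equal column totals, at −0.17. The share of Aldoa in the aldolase sum went from 95.4% to 93.7%, and that of Eno1 in the sum of Eno1 and Eno2 from 96.3% to 94.9%. Both were without overlap and had an exact permutation p of 0.10, or 0.16 adjusted. Eno3 and the copy Eno1b were not part of that sum, and shares that include them were not tested.

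Pgam1 (chromosome 19, 41911923 to 41918660, plus strand) was not called, while the genes on either side of it in the pathway, Pgk1 and Eno1, fell. This gene encodes the mutase between phosphoglycerate kinase and enolase and had the highest listed level of the 34 members in both groups, but the level of Gapdh is uncertain because of its near-identical copies. It read 800, 817 and 809 FPKM with DMSO and 861, 838 and 856 FPKM with BMH-21, so that every treated library was above every control by a small margin. The log2 fold change of 0.07 ± 0.04 did not pass (SE, limma adjusted p = 0.0974). Relative to the all-gene median the difference was 0.31, and Pgam1 passed as higher with median-ratio scaling, at 0.36, and upper-quartile scaling, at 0.39, but as lower with quantile normalization, at −0.12. As a share of the summed level of the 34 members it went from 20.7% ± 0.09 to 31.1% ± 0.20 (SD, n = 3). The sum of the other 33 members went from 3102 ± 15 to 1890 ± 31 FPKM (SD, n = 3), 60.9% of the DMSO mean, and with Pgam1 included the sum was 70.1%.

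**Figure D3:**
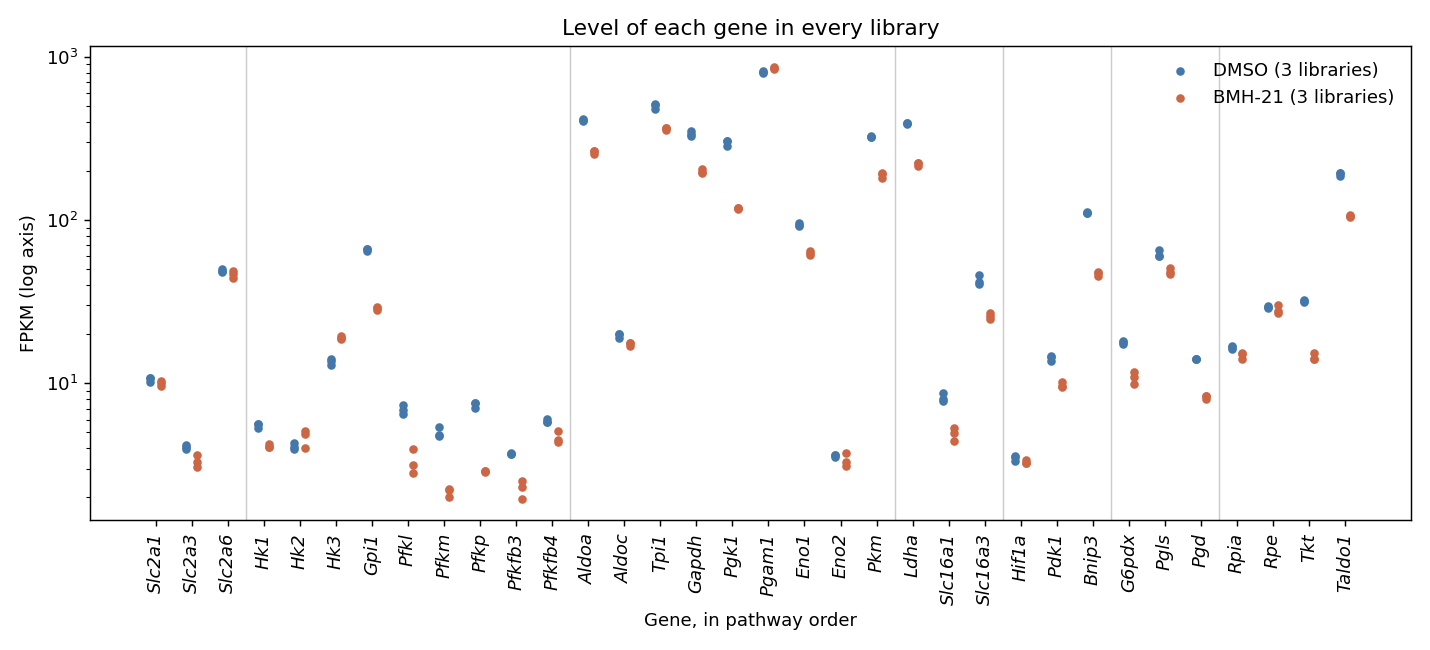
Points give the FPKM of each of the 34 genes in each library on a log axis, DMSO to the left and BMH-21 to the right of each gene's position, in pathway order with grey lines between steps. The treated points lie below the controls for most genes, above them for Hk3 and, narrowly, for Pgam1, and the 3 libraries of a group nearly coincide for the abundant genes.

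Gapdh and Eno1 need their near-identical copies beside them. Gapdh, glyceraldehyde phosphate dehydrogenase, read 352, 328 and 335.5 FPKM with DMSO and 195, 196 and 205 FPKM with BMH-21 (log2 fold change −0.76 ± 0.04, SE, limma adjusted p = 1e-07). In the GENCODE M21 transcripts 74 other genes matched at least 50% of its coding sequence at 95% identity or more in a single alignment, and 57 of them were rows of the table. Of these, Gm13394 alone was listed at 821 ± 52 FPKM with DMSO and 497 ± 65 FPKM with BMH-21, and Gm7336 at 280 ± 11 and 163 ± 9.7 FPKM (SD, n = 3). Summed with its copies, Gapdh went from 1450 to 867 FPKM, 59.8% of the DMSO mean, beside 58.7% for Gapdh alone. The level listed for Gapdh itself is therefore uncertain, and its place in the order of levels was not settled here.

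Eno1, the main enolase, read 93.6, 96.0 and 91.6 FPKM with DMSO and 64.75, 60.8 and 63.1 FPKM with BMH-21 (log2 fold change −0.57 ± 0.04, SE, limma adjusted p = 5.7e-07). Its copy Eno1b was listed at nearly the same level, 97.3 ± 2.4 and 65.1 ± 3.2 FPKM, and Gm4735 at 69.8 ± 0.47 and 51.6 ± 5.7 FPKM (SD, n = 3). Together with 3 copies, Eno1 went from 264 to 182 FPKM, 68.6% of the DMSO mean, beside 67.1% alone. Copies of Pgk1, Pkm, Ldha, Pgam1 and Bnip3 summed to at most 1.4 FPKM in either group.

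**Figure D4:**
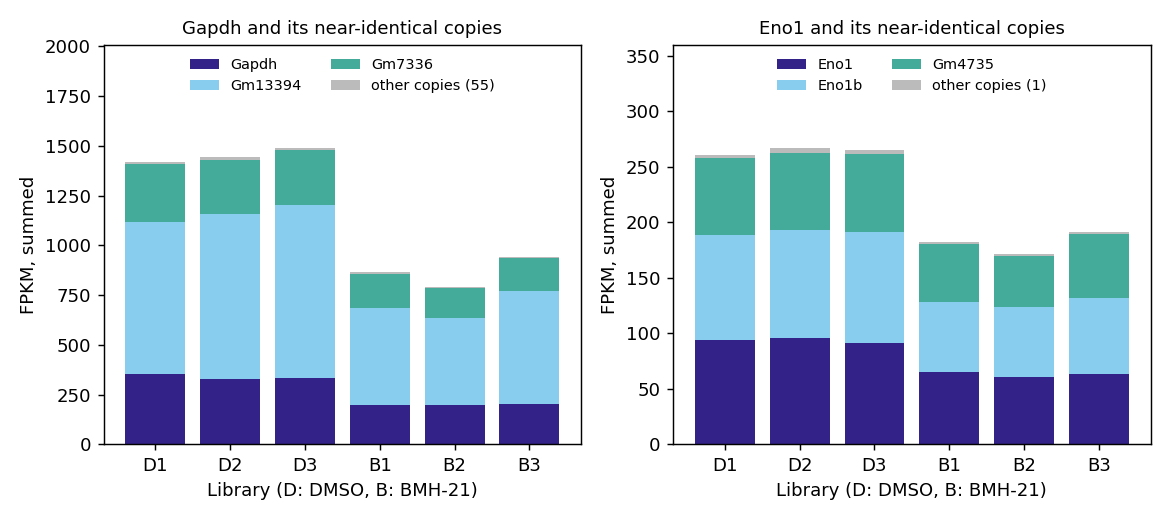
Stacked bars give the FPKM listed for Gapdh (left) and Eno1 (right) and for the genes whose sequence nearly matches theirs, in each library (D1 to D3, DMSO; B1 to B3, BMH-21). In both panels the named gene holds a minor part of the sum, and the sums are 1419 to 1488 FPKM against 791 to 943 FPKM for Gapdh and 261 to 267 FPKM against 171 to 191 FPKM for Eno1.

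The mRNAs analysed for lactate production and export fell, as did most of those of the triose steps. Ldha, the subunit that favours lactate formation, read 392, 388 and 396 FPKM with DMSO and 215, 223 and 224 FPKM with BMH-21 (log2 fold change −0.83 ± 0.04, SE, limma adjusted p = 2.91e-08). Slc16a3, the exporter MCT4 of highly glycolytic cells, went from 45.9, 40.8 and 41.5 FPKM to 24.95, 27.0 and 26.0 FPKM. Slc16a1, the widespread transporter MCT1, went from 8.02, 8.71 and 7.79 FPKM to 5.32, 4.41 and 4.995 FPKM. Neither transporter's groups overlapped, and log2 fold changes were −0.70 for Slc16a3 and −0.64 for Slc16a1. No shift within the pair was detected, with Slc16a1 at 16.1% ± 1.4 and 15.9% ± 1.8 of the sum (SD, n = 3, exact permutation p = 0.90, adjusted p = 0.97).

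In the HIF-1 branch Bnip3 and Pdk1 fell, and the factor gene Hif1a did not pass. Hif1a, the oxygen-regulated subunit, was at 3.33, 3.58 and 3.52 FPKM with DMSO and at 3.38, 3.24 and 3.27 FPKM with BMH-21. The groups overlapped (log2 fold change −0.06 ± 0.05, SE, limma adjusted p = 0.304), and Hif1a passed as higher with quantile normalization, at 0.26, upper-quartile scaling, at 0.19, and median-ratio scaling, at 0.16, and as lower with equal column totals, at −0.15. Bnip3 (chromosome 7, 138890836 to 138909519, minus strand), a mitophagy receptor induced in hypoxia, read 112, 110 and 111 FPKM with DMSO and 45.71, 47.95 and 47.3 FPKM with BMH-21. Its log2 fold change was −1.22 ± 0.04 (SE, limma adjusted p = 2.73e-09). Pdk1, the kinase that shuts pyruvate dehydrogenase, went from 14.7, 14.5 and 13.8 FPKM to 10.1, 9.64 and 9.43 FPKM, a log2 fold change of −0.51.

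All 3 oxidative pentose phosphate genes were called lower, against 58.4% of all tested genes. G6pdx, the rate-limiting dehydrogenase, read 17.4, 18.2 and 18.01 FPKM with DMSO and 10.9, 9.88 and 11.7 FPKM with BMH-21 (log2 fold change −0.68 ± 0.06, SE, limma adjusted p = 2.31e-06). Pgd, which makes the second NADPH, read 14.1, 14.2 and 14.1 FPKM and then 8.35, 7.97 and 8.32 FPKM, a log2 fold change of −0.72 with no overlap. Pgls, the lactonase between them, fell less, from 62.1 ± 2.9 to 48.5 ± 2.2 FPKM (SD, n = 3). The Pgls call was lost with median-ratio scaling, at −0.07, and upper-quartile scaling, at −0.04.

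The non-oxidative arm was split between its enzymes. Tkt, transketolase, read 32.4, 31.9 and 31.5 FPKM with DMSO and 15.4, 14.1 and 14.2 FPKM with BMH-21 (log2 fold change −1.08 ± 0.05, SE, limma adjusted p = 1.71e-08). Taldo1, transaldolase, went from 186, 193 and 195 FPKM to 106, 104 and 107 FPKM, a log2 fold change of −0.85. These are the enzymes that move carbon between the pathway and glycolysis, and no treated library reached a control level in either. The pair that interconverts pentose phosphates had small log2 fold changes. Rpia, ribose phosphate isomerase, went from 16.7 ± 0.36 to 14.9 ± 0.70 FPKM (SD, n = 3), a call whose sign turned with median-ratio scaling, at 0.11, upper-quartile scaling, at 0.15 and past the threshold, and quantile normalization, at 0.07, and which was lost with DMSO 3 as the only control (log2 fold change −0.15). Rpe, the epimerase, was at 29.3 ± 0.46 and 28.3 ± 1.7 FPKM (SD, n = 3) and had a log2 fold change of −0.05, which did not pass (limma adjusted p = 0.363). Rpe passed as higher with median-ratio scaling, at 0.22, upper-quartile scaling, at 0.26, and quantile normalization, at 0.12, and as lower with equal column totals, at −0.17, and with adjustment for coding length and GC content, at −0.18.

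Neighbouring genes were described from lists of related pathways, whose counts stand beside 58.4% of all tested genes called lower and 19.9% called higher. For all of these lists, calls were not followed under the alternative scalings. Of 27 tested other genes of glycolysis, glycogen and sugar interconversion, 20 were called lower and 3 higher, with a median log2 fold change of −0.53. The 3 with the smallest p were Pgm1, a phosphoglucomutase, from 12.7 to 5.21 FPKM, the glycerol phosphate dehydrogenase gene Gpd1l, from 13.0 to 7.14 FPKM, and Galk1, galactokinase, from 86.9 to 49.9 FPKM. Of 8 other pentose and ribose genes, 7 were lower and none higher, with a median of −0.48. These included the ribose phosphate kinases Prps1, from 41.4 to 21.7 FPKM, and Prps2, from 9.54 to 5.09 FPKM, and the copy Prps1l3, from 13.9 to 7.71 FPKM.

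The routes out of pyruvate and back to glucose had few tested genes. Of 12 genes of pyruvate entry and its control, 8 were lower, against 58.4% of all tested genes, and none higher (median −0.54). Dld, the shared dihydrolipoamide dehydrogenase, went from 22.9 to 11.3 FPKM, and the pyruvate dehydrogenase subunits Pdhb and Pdha1 from 59.0 to 31.95 FPKM and from 29.6 to 17.2 FPKM. The 3 tested gluconeogenesis genes were all called lower, against the same 58.4%. Pck2, the mitochondrial PEP carboxykinase, read 10.98, 10.96 and 10.66 FPKM with DMSO and 1.91, 1.79 and 2.23 FPKM with BMH-21, a log2 fold change of −1.998. G6pc3, a glucose phosphatase, went from 24.1 to 15.7 FPKM and its transporter partner Slc37a4 from 8.52 to 5.27 FPKM.

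Of 26 further HIF-1 pathway genes and hypoxia targets, 18 were lower and 4 higher, beside the 58.4% and 19.9% of all tested genes, with a median of −0.38. Ero1l, the disulfide oxidase of the endoplasmic reticulum, went from 91.4, 97.2 and 94.8 FPKM to 36.24, 35.05 and 35.24 FPKM. The ankyrin repeat gene Ankrd37 went from 10.99 to 3.76 FPKM and the angiogenic factor Vegfa from 9.56 to 4.40 FPKM. The 4 called higher were Tfrc, Bnip3l, Mif and Egln2. The glucose-sensing list of 5 genes had 3 lower and 1 higher and a median of −0.27, close to that of all genes. Mlx, the shared partner of MondoA and ChREBP, rose from 46.8 to 59.5 FPKM, while their targets Txnip and Arrdc2 fell from 141 to 114 FPKM and from 2.57 to 1.70 FPKM. Relative to the all-gene median, the log2 fold change was −0.08 for Txnip and −0.17 for Arrdc2. Among 11 other transcriptional regulators of glycolysis, 5 were lower and 4 higher (median −0.09), and for this list and the glucose-sensing one the same shares of all tested genes, 58.4% and 19.9%, apply. The 3 with the smallest p all fell: Trp53, which encodes p53, from 16.3 to 7.40 FPKM, Sp1 from 2.83 to 1.71 FPKM and Usf1 from 33.9 to 27.1 FPKM. The 4 called higher were Cebpb, Max, Esrra and Nfe2l2. Cebpb had the largest log2 fold change of this list, 1.18, and was chosen after its values were seen. It went from 53.4, 81.6 and 126 FPKM with DMSO to 200, 172 and 190.5 FPKM with BMH-21. Myc was under the filter, at 0.619 FPKM with DMSO and 0.436 FPKM with BMH-21.

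**Figure D5:**
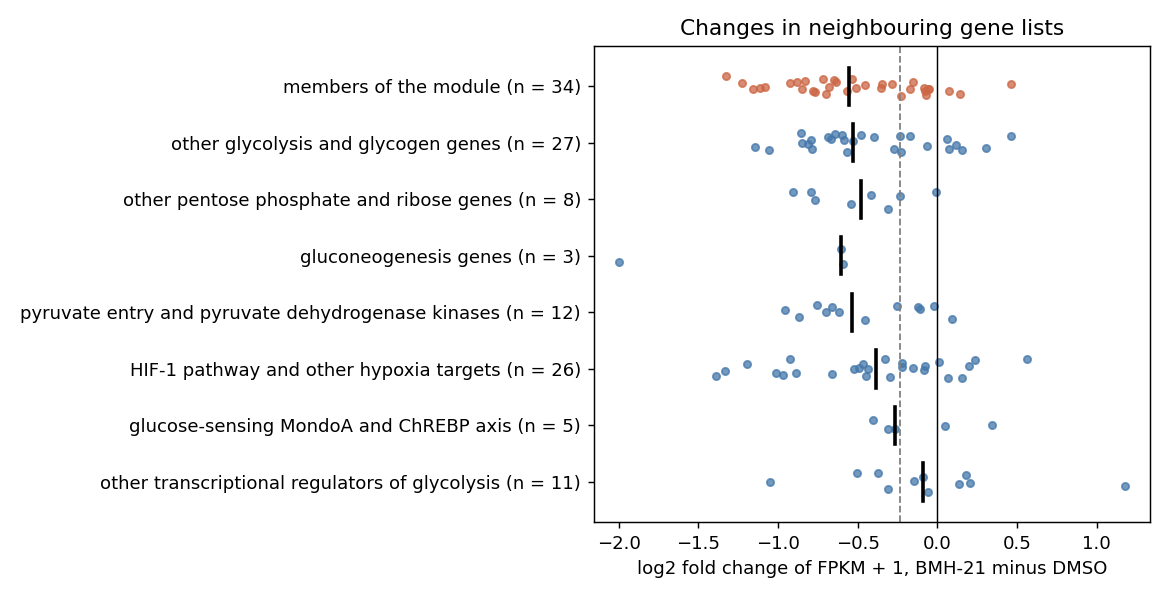
Each point is the log2 fold change of 1 tested gene (BMH-21 minus DMSO, FPKM + 1), in rows for the module and for 7 lists of related genes, with vertical jitter for display. Black bars are row medians, from −0.61 for gluconeogenesis to −0.09 for other regulators, and the dashed line is the median of all tested genes, −0.23.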

How the data were processed

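Polysome RNA of 6 RAW264.7 libraries was analysed, 3 per group, grouped and numbered by sample title. The authors deposited a table of normalised values, read here as FPKM from its values, since no unit is named in the labels. Trimmomatic 0.38 (trimming software), the aligner HISAT2, SAMtools and the mouse build mm10 are named in the submitters' processing notes. How fragments were counted and normalised, on which gene models and with what use of strand is not given in the sources used here. Exons of Hk1, Hk3, Pfkm, Pfkp, Tpi1, Gapdh, Bnip3, G6pdx and Rpe overlap another listed gene on the opposite strand, whose reads cannot be told apart. On the same strand, exons of Pfkm overlap those of Gm26513, exons of Pkm those of Gm49759 and exons of Pgls those of Fam129c. The part of these overlaps in the values was not tested.

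Values were transformed as log2(FPKM + 1), and fold changes on that scale understate changes of low genes. The filter kept genes reaching 1 FPKM in 3 or more libraries. They were fitted in limma (version 3.58.1, R version 4.3.3) with the trend option and Benjamini-Hochberg adjustment over all 9748 genes at 0.05. A check of the test on simulated data used independent noise per gene and no shift shared by all genes. It therefore says nothing about the scaling of the libraries. Isozyme shares were tested by two-sided exact permutation over libraries. Nothing in the labels ties libraries to separate cultures, so p-values measure the spread between these samples. The label of DMSO 2 names polyA RNA where the others name total RNA.

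Depth was estimated from steps between low values of single-transcript genes, of which 76.8% to 78.6% lay within 0.01 of a whole read, up to 20 reads. This was too few to recover counts, so no count model was fitted. Copies were found with BLAST 2.17.0. GENCODE M21 (GRCm38, the assembly of mm10) matched 97.4% of genes. Members, lists and tests were chosen with earlier results of these data known. Every member is named, with the value of each library for those called at 0.5 or more on the log2 scale, and from each related list the 3 called genes with the smallest p. Alternatives covered scaling, filter, pseudocount, length and GC content, pairing and left-out libraries. The use of DMSO 3 as the only control was added after the data were seen, and it assumes that this lone library varies like the others.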

Additional observations from a re-analysis of the deposited data

How the results depend on the processing

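Under the scalings that re-centre the libraries, members called higher numbered 7 with median-ratio scaling, 10 by the upper quartile and 6 with quantile normalization, against 1 as deposited. The shares of all tested genes called higher were 37.7%, 40.1% and 36.3%, against 19.9%. Members called lower numbered from 20 with upper-quartile scaling to 31 with equal column totals over all alternatives, against 26. Beside these stood 33.4%, 68.1% and 58.4% of all tested genes. The members' median log2 fold change, −0.55, became −0.31, −0.28 and −0.39 in the 3 re-centring fits. It was −0.66 with equal column totals and −0.61 with a pseudocount of 0.1. When coding length and GC content were adjusted for it was −0.46, and 2 members were higher, beside 17.8% of all tested genes. Leaving out 1 library at a time gave 1 to 2 members higher, beside 18.6% to 19.2% of all tested genes, and medians of −0.58 to −0.53. With the replicate block, 26 members were lower and 1 higher, beside 57.5% and 19.4% of all tested genes, with a median of −0.55. Same-numbered libraries correlated at −0.11, −0.09 and −0.06 in their deviations from group means, none best with its own number. These correlations cannot show whether same-numbered libraries were handled together.

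Signs turned with median-ratio scaling for Slc2a1 (0.18), Slc2a6 (0.20), Aldoc (0.10), Hif1a (0.16), Rpia (0.11), Rpe (0.22) and Eno2 (0.15). With upper-quartile scaling they turned for Slc2a1 (0.21), Slc2a3 (0.022), Slc2a6 (0.24), Aldoc (0.13), Eno2 (0.18), Hif1a (0.19), Rpia (0.15) and Rpe (0.26). With quantile normalization they turned for Slc2a1 (0.17), Slc2a3 (0.10), Pfkfb4 (0.039), Aldoc (0.052), Pgam1 (−0.12), Eno2 (0.26), Hif1a (0.26), Rpia (0.072) and Rpe (0.12). Signs also turned, without a call, for Slc2a1 (0.047), Slc2a6 (0.056), Eno2 (0.04), Hif1a (0.039) and Pgam1 (−0.01) with adjustment for coding length and GC content and for Pgam1 (−0.048) with equal column totals. The causes were not tested. Family shares do not change under a single factor per library. With quantile normalization the Hk3 gain was 7.63 points, and the Slc2a3, Slc2a6 and Hk2 differences turned sign, at 0.446, −2.38 and 0.212 points, as did that of Slc16a1, at 1.75 points. Without counts, the error from read sampling in low members such as Pfkfb3 could not be given apart from the limma SE.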

Other observations

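Several isoforms of other tissues were at or near 0 and were not tested. The liver and red cell pyruvate kinase gene Pklr was listed at 0 with DMSO and averaged 0.005 FPKM with BMH-21. The glycogen phosphorylases Pygl and Pygm averaged at most 0.0223 FPKM in either group, while the brain form Pygb was tested and fell from 3.25 to 1.68 FPKM. Pgam2, the muscle counterpart of Pgam1, averaged 0.883 FPKM with DMSO and 0.295 FPKM with BMH-21, under the filter. Slc2a9, a urate and hexose transporter, was higher with BMH-21, at 9.22 against 6.40 FPKM (limma adjusted p = 1.06e-05, log2 difference 0.47). It was chosen after its values were seen.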
